A study of Mus musculus with 4 samples.

Results

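The CC chemokine genes Ccl3, Ccl4, Ccl5, Ccl6 and Ccl9 were followed in colon monocytes and macrophages of mice exposed to diesel exhaust particles (DEP). They were 5 of the 28692 genes of the table, taken by symbol, and each had UMIs in all 4 mice. A UMI (unique molecular identifier) tags 1 captured RNA molecule. Levels are given in CPM, the UMIs of a gene scaled to the same total of UMIs in each sum of barcodes, and since only the 3′ end of a transcript is counted they do not grow with its length.

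CC chemokines are small secreted proteins that draw leukocytes along a gradient through G protein-coupled receptors. Ccl3, Ccl4 and Ccl5 are made in bursts by activated macrophages, T cells and NK cells. Ccl3 and Ccl5 bind Ccr1 among their receptors, and Ccl6 and Ccl9 are rodent ligands of Ccr1 that myeloid cells make without an added stimulus.

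All 4 mice were male C57/Bl6N mice. The DEP group (mice DEP 11 and DEP 13) had been given 12 µg of particles per dose, in a volume of 200 µL, into the gut on 5 days per week over about 6 months, and the PBS group (mice PBS 2 and PBS 3) had been given the same buffer with no particles. Lamina propria cells were sorted for CD11b with Ly6C, CD64 or both, in a single batch, and each mouse had a 10x Genomics well of its own. DEP exposure and mouse could thus be compared over 2 mice per group, and the sort can set how many barcodes of each kind were seen.

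Of 6954 barcodes, 4771 had at least 1000 UMIs, with 675 to 1582 barcodes and 4357153 to 10063287 UMIs per mouse. DEP 13 had the fewest barcodes and UMIs and gives the least precise values. The same barcode sequence was found in more than 1 mouse for 36 sequences, 12 of them at this depth. Barcodes were divided by Ly6c2, a monocyte surface antigen, at 5 UMIs per 10000, and by C1qa, a complement gene of resident macrophages, at 10 UMIs per 10000. The Ly6c2-high C1qa-low stratum held 366 barcodes, the Ly6c2-high C1qa-high stratum 263, the C1qa-high Ly6c2-low stratum 3367 and 775 were neither. Within 2-fold of a limit lay 712 barcodes for Ly6c2 and 1534 for C1qa. The 10 monocyte markers summed to between 7908 and 9103 CPM in the Ly6c2-high C1qa-low stratum. In the C1qa-high Ly6c2-low stratum they summed to between 851 and 1440. The 12 resident macrophage markers summed to between 10885 and 17866 in the former and between 44811 and 55627 in the latter. The lists include Ly6c2 and C1qa, by which the strata were divided. Part of this separation was thus fixed in advance, and the sums are no test of the labels. C1qa-high Ly6c2-low barcodes made up 66.1% ± 1.80 (SD, n = 2) of a DEP mouse and 73.9% ± 2.23 (SD, n = 2) of a PBS mouse, a difference of -7.75 percentage points (two-sided p = 0.333 by exact permutation, which is the lowest value possible with 2 against 2 mice). With both limits halved the difference was -2.35 points (exact p = 0.667) and with both doubled -1.06 points (exact p = 1).

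Another cell type was present. Immunoglobulin genes with Jchain held at least 5% of the UMIs of 96 barcodes, as in plasma cells, at a median of 44.7% of their UMIs and a median depth of 19210 UMIs. Some of these carried Ly6c2 and lay in the Ly6c2-high strata. They gave 5.54% of the UMIs of the Ly6c2-high C1qa-low stratum of DEP 11, 19.6% for DEP 13, none for PBS 2 and 7.29% for PBS 3. In the Ly6c2-high C1qa-high stratum they gave 11.1% to 36.3%. Results for these strata are therefore also given with immunoglobulin-rich barcodes left out, an alternative chosen after seeing the data.

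The 5 genes lie together on chromosome 11 (mm10), from 83525778 to 83664683, a span of 138906 bases. Ccl5 (ENSMUSG00000035042, 83525778 to 83530518), Ccl9 (ENSMUSG00000019122, 83572919 to 83578636), Ccl6 (ENSMUSG00000018927, 83587882 to 83593087) and Ccl3 (ENSMUSG00000000982, 83647844 to 83649355) are on the minus strand, and Ccl4 (ENSMUSG00000018930, 83662584 to 83664683) is on the plus strand. In the GENCODE M21 transcripts Ccl6 and Ccl9 have 4 coding exons and 116 and 122 codons, while Ccl3, Ccl4 and Ccl5 have 3 coding exons and 92, 92 and 91 codons. The coding bases were alike in 68.1% of aligned positions between Ccl3 and Ccl4 and in 64.6% between Ccl6 and Ccl9, and in 45.3% to 62.8% for the other 8 pairs. No run of 31 bases was shared by any pair in the last 300 bases of their transcripts, where 3′ reads arise, so reads of one member are not easily taken for another.

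RefSeq promoters (GRCm38.p6) were found for Ccl9, Ccl6 and Ccl3 of the 5 members. They are shown because Ccl6 and Ccl9 moved together in the results below and Ccl3 did not move with them. Each run is the 250 bases before the annotated start, 5′ to 3′ on the minus strand of chromosome 11, with motif matches in capitals.
Ccl9, chr11:83578637-83578886: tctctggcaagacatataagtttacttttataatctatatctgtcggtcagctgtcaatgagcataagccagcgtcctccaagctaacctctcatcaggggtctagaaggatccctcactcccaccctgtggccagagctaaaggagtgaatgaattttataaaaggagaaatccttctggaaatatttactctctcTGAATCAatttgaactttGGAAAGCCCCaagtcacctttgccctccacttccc
Ccl6, chr11:83593088-83593337: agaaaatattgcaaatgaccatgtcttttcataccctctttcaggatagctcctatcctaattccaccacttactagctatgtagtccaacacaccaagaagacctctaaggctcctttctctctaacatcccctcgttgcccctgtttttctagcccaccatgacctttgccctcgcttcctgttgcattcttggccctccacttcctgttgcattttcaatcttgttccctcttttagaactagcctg
Ccl3, chr11:83649379-83649628: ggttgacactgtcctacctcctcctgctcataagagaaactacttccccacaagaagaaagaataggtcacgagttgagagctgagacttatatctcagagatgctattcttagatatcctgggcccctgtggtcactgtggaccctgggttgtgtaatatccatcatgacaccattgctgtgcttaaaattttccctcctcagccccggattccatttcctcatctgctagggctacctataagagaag
The Ccl9 promoter held a match to the AP-1 motif TGANTCA, 53 to 47 bases before the start, and a match to the NF-kB consensus, 35 to 26 bases before it. The Ccl6 and Ccl3 windows held no match to either, nor to C/EBP (TTGCNNAA), ISRE or PU.1 (GAGGAAGT), searched on both strands with overlaps allowed. Over 32851 promoter windows of the same length, 3.9% held the NF-kB consensus, 6.75% AP-1, 9.56% C/EBP, 2.98% ISRE and 2.44% PU.1. A local alignment of the 300-base RefSeq windows of Ccl6 and Ccl9 joined 74 positions, 58 of them identical (78.4%). That of Ccl3 with Ccl6 joined 62 positions, 39 of them identical (62.9%), and that of Ccl3 with Ccl9 only 11, of which 10 were identical (90.9%). A match describes letters only.

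The first comparison asked how the chemokines differed between monocyte-rich and macrophage-rich barcodes of the same mouse. Ccl6 and Ccl9 were lower in the C1qa-high Ly6c2-low stratum than in the Ly6c2-high C1qa-low stratum, Ccl4 and Ccl5 were higher, and Ccl3 did not pass the test. In this comparison 26.3% of 6783 tested genes were called (12.1% higher, 14.3% lower), and 4 of the 5 members were called. The direction was the same in all 4 mice for 40.9% of genes, and for Ccl4, Ccl6 and Ccl9.

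Ccl6 stood at 1424, 1265, 1532 and 1301 CPM in the Ly6c2-high C1qa-low stratum of DEP 11, DEP 13, PBS 2 and PBS 3. In the C1qa-high Ly6c2-low stratum of the same mice it stood at 446, 438, 592 and 581. All 4 mice were lower in the C1qa-high stratum and no value of one stratum reached the other. The log2 difference was -1.44 (SE 0.08, edgeR quasi-likelihood adjusted p = 2.67e-11). Ccl9 followed the same course, at 1002, 842, 1162 and 1045 CPM against 355, 322, 527 and 447. Its log2 difference was -1.32 (SE 0.07, edgeR adjusted p = 4.39e-11), again lower in 4 of 4 mice. The ratio of Ccl6 to Ccl9 UMIs stayed between 1.12 and 1.57 over the 16 strata of the 4 mice, while both levels changed by over 2-fold between strata.

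Ccl4 stood at 345, 292, 1019 and 694 CPM in the Ly6c2-high C1qa-low stratum and at 1023, 1302, 1429 and 1119 in the C1qa-high Ly6c2-low stratum. It was higher in the C1qa-high stratum of 4 of 4 mice, by 2.97-fold and 4.46-fold in the DEP mice 11 and 13, and by 1.40-fold and 1.61-fold in the PBS mice 2 and 3. The mean log2 difference was 1.15 (SE 0.16, edgeR adjusted p = 1.78e-05). Ccl3, its neighbour, stood at 459, 604, 1041 and 899.5 CPM in the Ly6c2-high C1qa-low stratum and at 652, 700.4, 900.1 and 689.7 in the other. It was higher in the C1qa-high stratum of both DEP mice and lower in that of both PBS mice, with a mean log2 difference of 0.01 (SE 0.10, edgeR adjusted p = 0.969). The ratio of Ccl4 to Ccl3 UMIs was 0.48 to 0.98 in the Ly6c2-high C1qa-low stratum and 1.57 to 1.86 in the C1qa-high Ly6c2-low stratum of the 4 mice, with no overlap.

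Ccl5 was sparse, at 19.96, 70.5, 19.9 and 27.8 CPM in the Ly6c2-high C1qa-low stratum, from 11, 21, 10 and 13 UMIs, and at 108, 50.4, 64.9 and 67.6 in the C1qa-high Ly6c2-low stratum. It was higher in the latter in 3 of 4 mice (log2 difference 1.26, SE 0.30, edgeR adjusted p = 0.00302). Without DEP 11 the difference was 0.80 and no longer passed (edgeR adjusted p = 0.128).

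**Figure D1:**
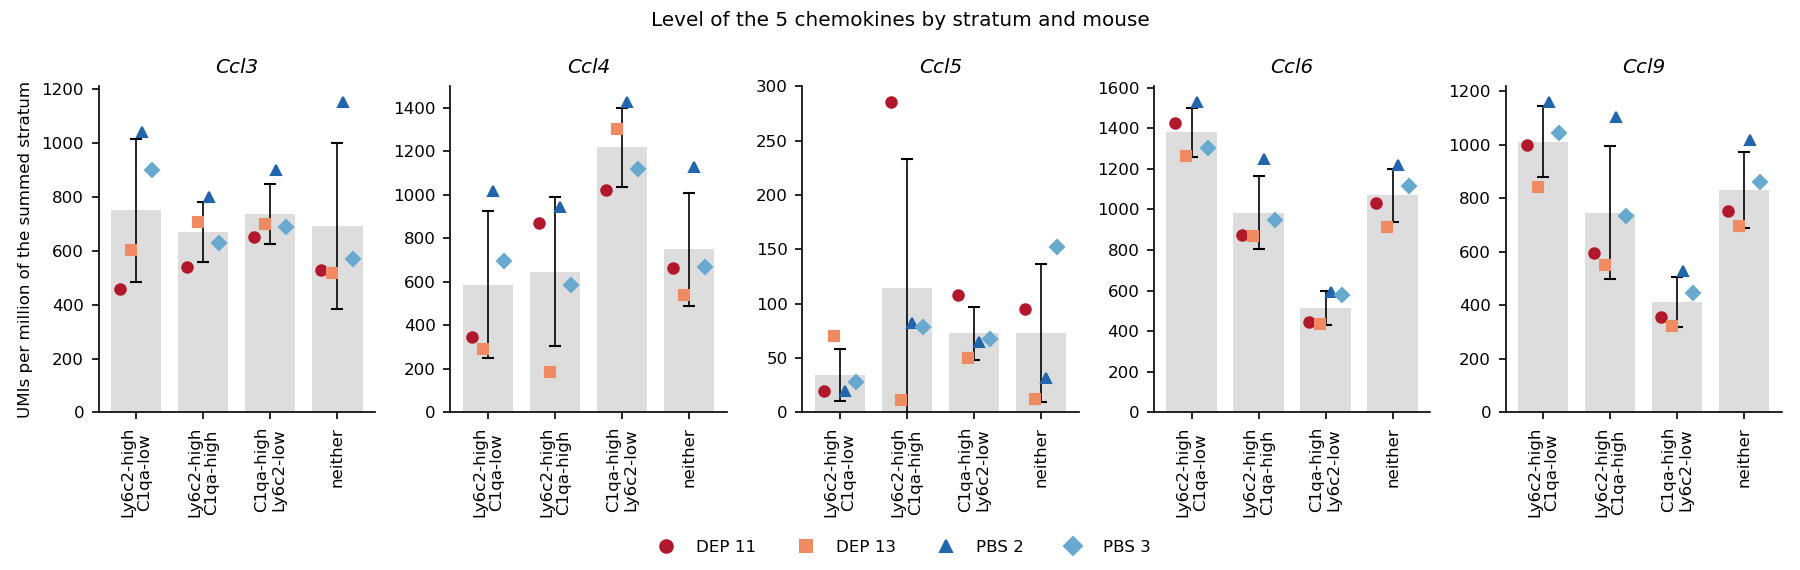
Level of each chemokine (y axis, CPM of the summed stratum) in 4 strata of barcodes by Ly6c2 and C1qa. Symbols are the 4 mice, bars their mean and lines ± 1 SD (n = 4). Ccl6 and Ccl9 were lowest in the C1qa-high Ly6c2-low stratum (mean 514 and 413), and Ccl4 was highest there (mean 1218).

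Over all 4 strata, the order of Ccl6 was Ly6c2-high C1qa-low (1381 ± 122, SD over 4 mice), neither (1070.5 ± 130.0), Ly6c2-high C1qa-high (985 ± 178) and C1qa-high Ly6c2-low (514 ± 83.9). The middle 2 did not differ beyond their spread. Ccl9 had the same order, at 1013 ± 132, 833 ± 142, 747 ± 250 and 413 ± 92.96, with its middle 2 likewise not apart. Without immunoglobulin-rich barcodes the middle 2 changed places, the Ly6c2-high C1qa-high stratum standing at 1176 ± 189 for Ccl6 and 954 ± 207 for Ccl9 and the neither stratum at 1169 ± 84.7 and 904 ± 113. Ccl4 was highest in C1qa-high Ly6c2-low barcodes (1218 ± 182), and the other 3 strata, at 751 ± 260, 647 ± 342 and 588 ± 339, lay within each other's spread. Ccl3 ranged only from 669 to 751 between strata, less than its spread between mice (SD of 111 to 309). Ccl5 ranged from 34.5 ± 24.3 to 115 ± 119.

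The change of Ccl6 and Ccl9 along C1qa was not spread evenly. With immunoglobulin-rich barcodes left out, Ccl6 stood at 1319 ± 116 (SD, n = 4 mice) CPM below 5 C1qa UMIs per 10000, 1242 ± 106 from 5 to 10 and 1141 ± 187 from 10 to 20. It was 707 ± 113 from 20 to 40, 399 ± 31.8 from 40 to 80 and 382 ± 81.6 above that. Ccl9 was 984 ± 117, 945 ± 113, 915 ± 201, 597 ± 193, 306 ± 54.0 and 313 ± 75.9 over the same classes. Both genes thus took most of their drop between 10 and 80, and the 756 barcodes from 10 to 20, counted as C1qa-high, had levels near those below 10. Ccl4 went from 773 ± 514 in the lowest class to 1313 ± 162 from 40 to 80, with PBS 2 at 1521 in the lowest class and the other 3 mice at or under 686. Ccl3 had no such course, with class means between 674 and 810.

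**Figure D2:**
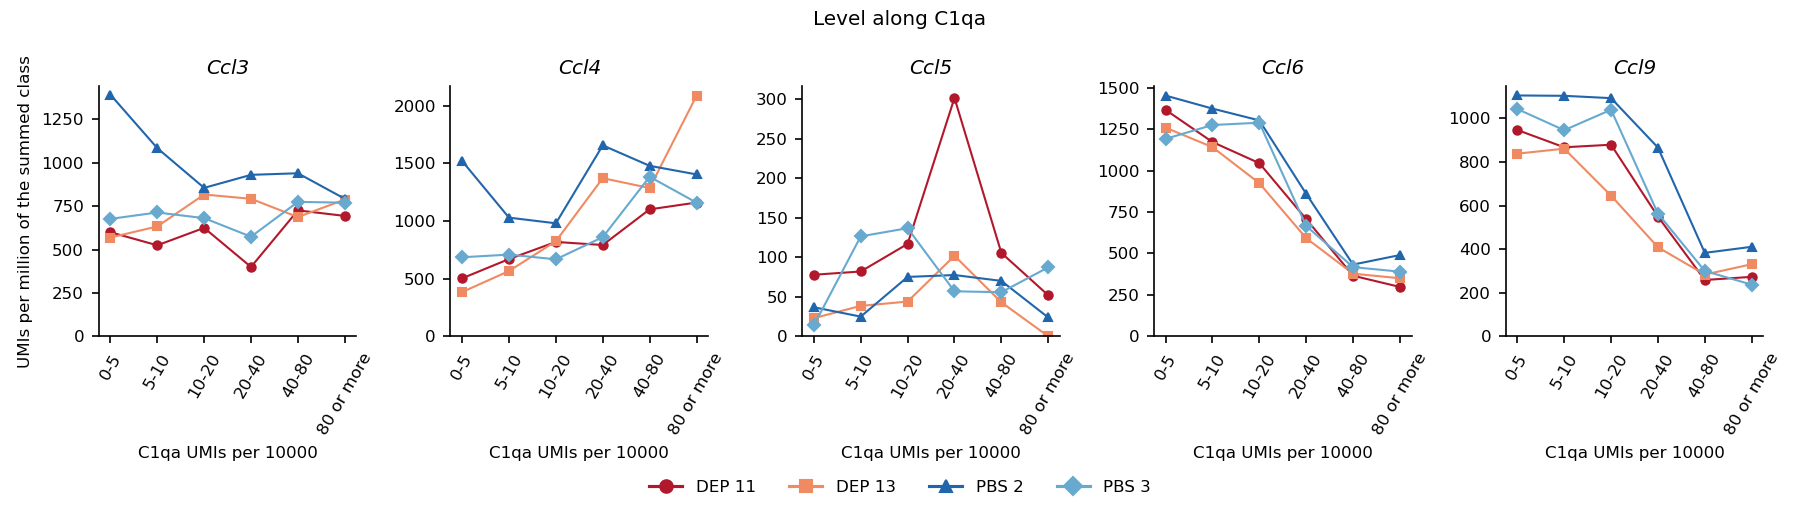
Level of each chemokine (y axis, CPM of the summed class) in classes of barcodes by C1qa UMIs per 10000 (x axis, immunoglobulin-rich barcodes left out), 1 line per mouse. Ccl6 and Ccl9 dropped between the classes 10 to 20 and 40 to 80 in all 4 mice. The classes hold 32 or more barcodes per mouse.

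Along Ly6c2 the picture was the reverse for the same pair. Ccl6 went from 584 ± 60.6 CPM in barcodes with no Ly6c2 UMI, and 674 ± 72.4 below 5 per 10000, to 1387 ± 97.9 from 5 to 10 and 1538 ± 246 at 20 or more. Ccl9 went from 461 ± 69.7 to 1163 ± 137. Ccl4 went from 1253 ± 217 to 557 ± 288, and Ccl3 from 750.2 ± 144 to 987 ± 568, within its spread. The highest Ly6c2 class held 7 barcodes in its smallest mouse and 90 in all.

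The next question was whether single barcodes with high levels carried these sums. Ccl5 was concentrated: the top 1% of barcodes held 59.3%, 51.6%, 43.9% and 58.7% of its UMIs in DEP 11, DEP 13, PBS 2 and PBS 3, and the top 5 barcodes held 26.1% to 41.1%. The barcode with the highest Ccl5 share, in PBS 3, had 329 UMIs per 10000, while only 9.19% to 16.4% of the barcodes of a mouse had any Ccl5 UMI. Ccl3 (10.3% to 11.8%) and Ccl4 (11.9% to 16.6%) were less concentrated, and Ccl6 (6.80% to 7.37%) and Ccl9 (6.16% to 8.37%) least. In every mouse the 2 burst genes Ccl3 and Ccl4 lay above Ccl6 and Ccl9 on this measure.

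The same barcodes tended to be high for both genes of a pair. Of the top 5% of barcodes for Ccl3, a mean of 44.2% ± 7.05 (SD, n = 4 mice) were also in the top 5% for Ccl4, and 30.5% ± 10.6 of the top Ccl6 barcodes were also top Ccl9 barcodes. For the other 8 pairs the mean lay between 2.35% and 7.63%. These are descriptions of barcodes that share a library and a depth. For Ccl5 the top 5% began at 1.63 to 3.06 UMIs per 10000, close to a single UMI, so its overlaps say little. Of the top Ccl4 barcodes, 79.7% to 87.9% were C1qa-high Ly6c2-low, against 65.4% to 75.5% of all barcodes. Of the top Ccl6 barcodes 18.3% to 56.2% were.

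**Figure D3:**
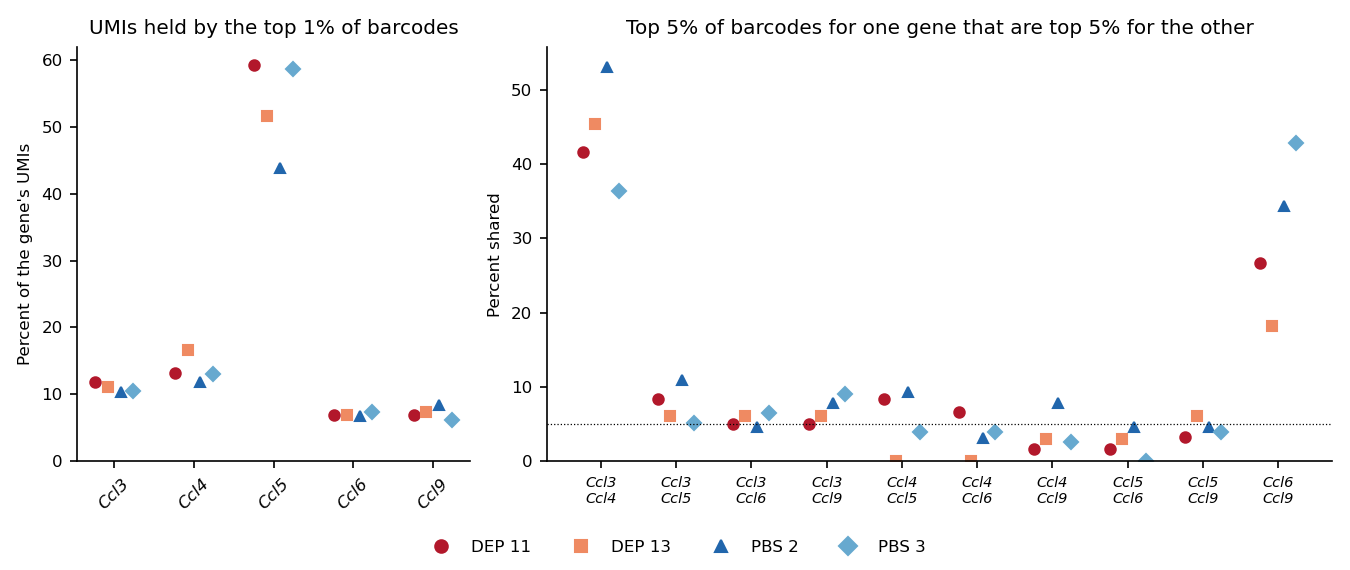
Left, share of a gene's UMIs held by the top 1% of barcodes (y axis, percent), 1 symbol per mouse. Right, share of the top 5% of barcodes for one gene that were in the top 5% for the other (y axis, percent), with a dotted line at 5%, the size of each set. Ccl5 stands highest on the left, and Ccl3 with Ccl4 and Ccl6 with Ccl9 stand highest on the right in all 4 mice.

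Free RNA in droplets is counted too, so the levels were set beside 2 other classes of barcodes, neither of which was shown to be free of myeloid cells. The 96 immunoglobulin-rich barcodes, of which 62 passed the C1qa limit, had 310.4 ± 51.5 CPM of Ccl6 and 257 ± 43.7 of Ccl9 (SD, n = 4 mice), and 239 ± 60.5 of Ccl3, 412 ± 144 of Ccl4 and 40.3 ± 35.9 of Ccl5. The 1614 barcodes under 500 UMIs, outside every stratum, had 378 ± 178 of Ccl6, 253 ± 51.2 of Ccl9, 426 ± 104 of Ccl3, 522 ± 74.0 of Ccl4 and 39.7 ± 29.1 of Ccl5. After thinning to 1000 UMIs, a UMI was found in 23.96% of immunoglobulin-rich barcodes for Ccl3, 29.2% for Ccl4, 4.17% for Ccl5, 29.2% for Ccl6 and 27.1% for Ccl9. The other 4675 barcodes (median 5792 UMIs) gave 36.5%, 40.2%, 4.04%, 44.2% and 38.2%. Without thinning the shares were 85.4%, 84.4%, 28.1%, 88.5% and 85.4% against 72.3%, 76.9%, 13.6%, 86.2% and 78.8%. The share of barcodes with a Ccl5 UMI was thus no higher than in immunoglobulin-rich barcodes. The part of free RNA in it was not tested. The 2 sets differ in depth, and thinning was the only correction made for it.

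In the C1qa-high Ly6c2-low stratum Ccl6 was 446, 438, 592 and 581 CPM beside 340, 236, 315 and 350.2 in immunoglobulin-rich barcodes and 293, 177, 460.0 and 579.6 in barcodes under 500 UMIs. Ccl9 in the same stratum was 355, 322, 527 and 447 beside 271, 199, 304 and 255 in immunoglobulin-rich barcodes and 275, 177, 271 and 289.8 under 500 UMIs. The levels of the macrophage-rich stratum were thus above both classes in 4 of 4 mice for Ccl9 and in 3 of 4 for Ccl6, and in PBS 3 Ccl6 was level with barcodes under 500 UMIs. The stratum's mean includes the barcodes near the C1qa limit. In the 1797 barcodes from 40 to 80 C1qa UMIs per 10000, Ccl6 was at 366, 378, 433 and 417 CPM, above both classes in the DEP mice and below that of barcodes under 500 UMIs in the PBS mice. Ccl9 was at 258, 283, 383 and 299.8 there, below both classes in DEP 11 and above both in the other 3 mice. In the Ly6c2-high C1qa-low stratum both genes were at least 2-fold above both classes in every mouse.

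**Figure D4:**
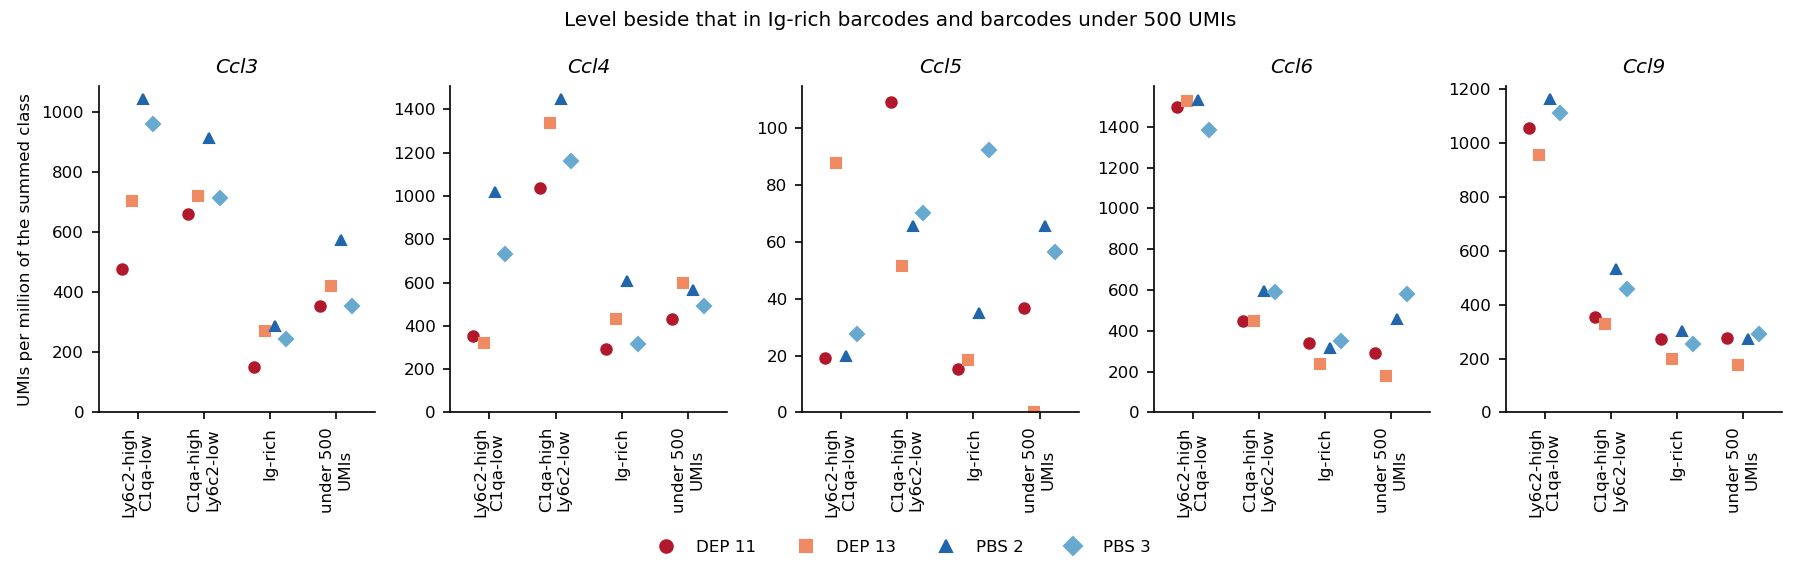
Level of each chemokine (y axis, CPM of the summed class) in 2 strata without immunoglobulin-rich barcodes, in immunoglobulin-rich (Ig-rich) barcodes and in barcodes under 500 UMIs, 1 symbol per mouse. Ccl4 of both DEP mice in the Ly6c2-high C1qa-low stratum (355 and 321.5) lies below the level of barcodes under 500 UMIs (433 and 597).

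The second comparison asked whether exposure moved the chemokines when all barcodes of a mouse were summed. No gene passed in either direction (0 of 6609 genes, 0%), with 171 genes at an unadjusted p under 0.05 by edgeR and 4 genes called by DESeq2. Ccl3 stood at 611 and 660.1 CPM in DEP 11 and DEP 13, and at 917 and 683 in PBS 2 and PBS 3. Ccl9 stood at 485 and 431 against 628 and 539, and Ccl6 at 642 and 590.1 against 722 and 697. In these 3 genes both DEP mice were below both PBS mice, as were 12.8% of all tested genes. Ccl4 stood at 902 and 1072 against 1358 and 1020, and Ccl5 at 108 and 44.1 against 61.6 and 76.4, with overlapping groups. The log2 fold changes were -0.32 for Ccl3 (SE 0.17), -0.25 for Ccl4 (SE 0.18), 0.14 for Ccl5 (SE 0.34), -0.20 for Ccl6 (SE 0.14) and -0.34 for Ccl9 (SE 0.14), each with an edgeR adjusted p of 0.997.

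In the Ly6c2-high C1qa-low stratum Ccl4 was lower in DEP mice. It stood at 345 and 292 CPM in DEP 11 and DEP 13, from 190 and 87 UMIs, and at 1019 and 694 in PBS 2 and PBS 3, from 513 and 325 UMIs. Both DEP mice were below both PBS mice, with a DEP mean of 318 ± 37.3 and a PBS mean of 857 ± 230 (SD, n = 2), a ratio of 0.37. A few barcodes held much of it: the top 5 had 33.7% and 46.0% of the stratum's Ccl4 UMIs in DEP mice and 46.8% and 49.2% in PBS mice. Without those 5 barcodes in each mouse, a description added after seeing the data, with no test since they were chosen by the Ccl4 UMIs themselves, the level was 240.3 and 174 against 576 and 373 CPM, the groups still apart. The median barcode had 1.39 and 1.75 Ccl4 UMIs per 10000 in DEP mice and 3.95 and 2.01 in PBS mice, so that PBS 3 was close to the DEP mice by this measure. On the log2 scale this was -1.37 with an SE of 0.22 (adjusted p = 0.0247, edgeR). It was 1 of 3 genes called among 5578 (0.0538%), 0.0179% being lower and 0.0359% higher. The others, named because the count is so small, were Igkc and Ly6a, both higher in DEP mice. Igkc, an immunoglobulin light chain gene of plasma cells, stood at 23150 and 64080 against 1756 and 6132 CPM, and the 6 plasma cell markers summed to 12846 and 27840 against 1093 and 12320, a part in the result that was not tested. The 11 T and NK cell markers summed to 72.6 and 10.1 against 55.6 and 59.8.

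The Ccl4 call was kept by DESeq2 (-1.36, adjusted p = 0.0050), with relative log expression factors, with no filter on low genes, with the study's filters, with both limits halved, without called doublets and without PBS 3. Other alternatives ended it. Leaving out immunoglobulin-rich barcodes left the size at -1.36 and ended the call (edgeR adjusted p = 0.136). Leaving out barcodes flagged by markers of another lineage (-1.43, edgeR adjusted p = 0.0689) and thinning to 1000 UMIs (-1.17, edgeR adjusted p = 0.434) also ended the call. It also ended without DEP 11 (-1.43, adjusted p = 0.0628), without DEP 13 (-1.31, adjusted p = 0.210) and without PBS 2 (-1.14, adjusted p = 0.622), and with both limits doubled (-0.77, adjusted p = 0.9997). The stratum's Ccl4 in DEP 11 and DEP 13, 345 and 292 CPM, was below that of barcodes under 500 UMIs (433 and 597). Immunoglobulin-rich barcodes had 292 and 430.2 CPM, so that DEP 11 was above 1 of the 2 classes and DEP 13 above neither. In PBS 2 and PBS 3 the stratum, at 1019 and 694, was above both (607 and 317.5 in immunoglobulin-rich barcodes, 567 and 491 under 500 UMIs). After thinning a Ccl4 UMI was found in 21.4% and 27.8% of the stratum's barcodes in DEP mice and in 37.8% and 28.6% in PBS mice.

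Ccl3 leaned the same way in that stratum, at 459 and 604 against 1041 and 899.5 CPM, with both DEP mice below both PBS mice. Its log2 fold change of -0.81 (SE 0.22, unadjusted p = 0.00187 by edgeR) did not pass over all genes (adjusted p = 0.9998), though it did with no filter on low genes (-0.87, adjusted p = 0.0469). Ccl9 stood at 1002 and 842 against 1162 and 1045 (log2 -0.21, SE 0.19) and was the third member with groups apart, in a stratum where 16.7% of genes were so with DEP lower. Ccl6 was level, at 1424 and 1265 against 1532 and 1301 (log2 -0.02, SE 0.19). Ccl5 stood at 19.96 and 70.5 against 19.9 and 27.8 (log2 0.81, SE 0.57). Without immunoglobulin-rich barcodes Ccl3 was at 476 and 701 against 1041 and 959 (log2 -0.77), Ccl9 at 1054.5 and 956 against 1162 and 1113 (-0.18), and Ccl6 at 1494 and 1524 against 1532 and 1385 (0.05), and none of the 3 passed.

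**Figure D5:**
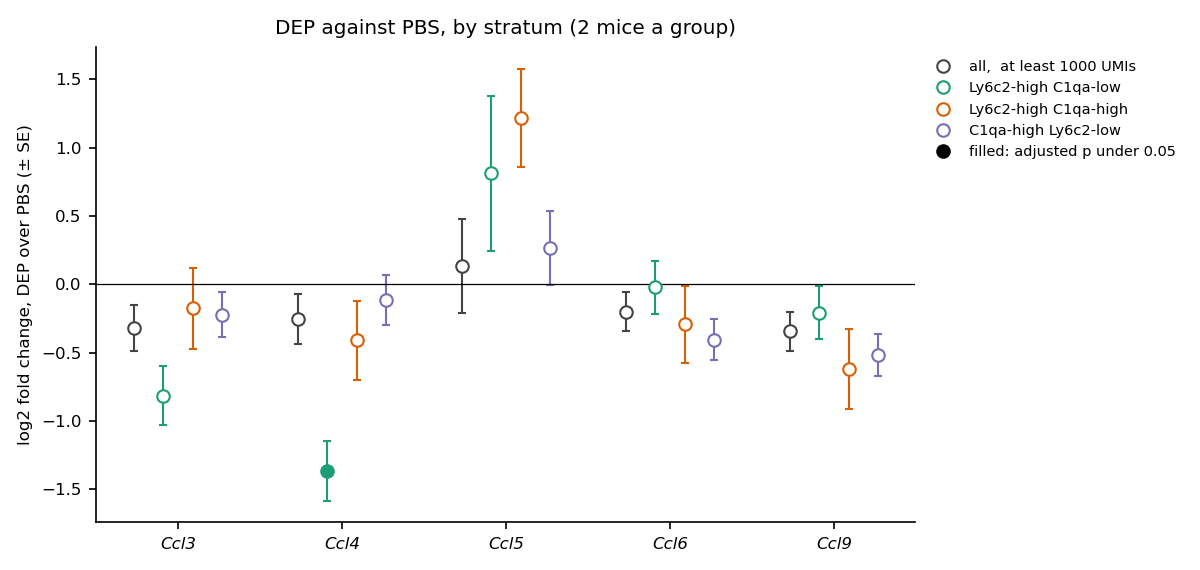
log2 fold change of DEP over PBS mice (y axis, ± SE from edgeR, 2 mice a group) for each chemokine over all barcodes and in 3 strata. The filled point has an adjusted p under 0.05: Ccl4 in Ly6c2-high C1qa-low barcodes, at -1.37.

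Genes raised by tissue dissociation were also compared. The 17 immediate early and heat shock genes of that list summed to 14816 and 12308 CPM in the Ly6c2-high C1qa-low stratum of DEP 11 and DEP 13 and to 21925 and 17309 in that of PBS 2 and PBS 3. All 16 tested had a lower estimate in DEP mice (median log2 -0.58, against -0.01 over all genes), with 0 called. Over all barcodes the sums were 14175 and 12660 against 18274 and 17043, and 17 of 17 had a lower estimate (median -0.46), again with 0 called. In C1qa-high Ly6c2-low barcodes, where the log2 value of Ccl4 was -0.12, the sums were 14254 and 12585 against 17669 and 16849, and 16 of 17 had a lower estimate (median -0.46). No gene of the list was called there either. In Ly6c2-high C1qa-high barcodes they were 12228 and 12399 against 19263 and 14817, 15 of 17 had a lower estimate, and the heat shock gene Hspb1, named since it was the only gene of the list called between DEP and PBS mice, was lower (log2 -3.78, edgeR adjusted p = 0.00104). Of 14 tested genes that NF-kB switches on together with Ccl3 and Ccl4, 11 had a lower estimate in Ly6c2-high C1qa-low barcodes (median -0.24) and 7 in C1qa-high Ly6c2-low barcodes (median 0.0038), with 0 called in either. In the former, Il1b, the inflammatory cytokine, stood at 2816 and 1080.5 against 3511 and 1720.0 CPM, Cxcl2, a neutrophil chemokine, at 428 and 285 against 656 and 261, Nfkbia, the NF-kB inhibitor, at 876 and 523 against 1003 and 705, and Zfp36, an RNA decay factor, at 1022 and 567 against 1142 and 632. The groups overlapped for Il1b, Cxcl2, Nfkbia and Zfp36. The part of dissociation in the Ccl3 and Ccl4 values was not tested.

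In the C1qa-high Ly6c2-low stratum Ccl4 stood at 1023 and 1302 CPM in DEP mice and at 1429 and 1119 in PBS mice, with overlapping groups (log2 -0.12, SE 0.18). Ccl3 stood at 652 and 700.4 against 900.1 and 689.7 (log2 -0.22, SE 0.17). Ccl6 and Ccl9 had their groups apart, as had 14.7% of genes with DEP lower. Ccl6 was at 446 and 438 against 592 and 581 (log2 -0.40, SE 0.15, unadjusted p = 0.0234 by edgeR), and Ccl9 at 355 and 322 against 527 and 447 (log2 -0.52, SE 0.15, unadjusted p = 0.00705). The barcodes near the C1qa limit moved with these values. Those from 10 to 20 C1qa UMIs per 10000 made up 16.3% and 14.1% of C1qa-high barcodes in DEP mice and 23.7% and 25.1% in PBS mice, with immunoglobulin-rich barcodes left out, and their part in the difference was not tested. From 40 to 80, Ccl6 was at 366 and 378 against 433 and 417, and Ccl9 at 258 and 283 against 383 and 299.8. Neither gene passed in the stratum over all genes, with edgeR adjusted p = 0.999 and 0.957, and 0 of 6872 genes were called (0%), 270 having an unadjusted p under 0.05 by edgeR and 7 being called by DESeq2. Ccl5 stood at 108 and 50.4 against 64.9 and 67.6 (log2 0.27, SE 0.27).

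Whether exposure acted unequally on the 2 strata was tested as an interaction with the mouse as a block. For Ccl4 the DEP effect in C1qa-high Ly6c2-low barcodes exceeded that in Ly6c2-high C1qa-low barcodes by 1.21 on the log2 scale (SE 0.16, edgeR adjusted p = 0.00117), which is 1 of 12 genes called among 6783 (0.177%; 0.0295% in this direction). Without immunoglobulin-rich barcodes the value was 1.20 (edgeR adjusted p = 1.16e-10). With both limits doubled it was 0.53 and did not pass (edgeR adjusted p = 1). For Ccl3 the difference was 0.62 (SE 0.14, edgeR adjusted p = 0.194). It passed without immunoglobulin-rich barcodes (0.62, edgeR adjusted p = 0.0031), without other lineages (0.60, adjusted p = 0.00123) and without PBS 2 (0.75, adjusted p = 0.00631). Ccl6 (-0.38, SE 0.12), Ccl9 (-0.30, SE 0.13) and Ccl5 (-0.40, SE 0.67) did not pass.

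In Ly6c2-high C1qa-high barcodes, of which DEP 13 had only 14, no member passed and 15 of 5787 genes did (0.259%). Ccl5 stood at 286 and 11.8 CPM in DEP 11 and DEP 13 against 82.4 and 78.4 in PBS 2 and PBS 3. Its log2 difference, 1.22 with an SE of 0.36, missed the threshold (adjusted p = 0.202, edgeR) and rested on DEP 11, in which 1 barcode held 55.6% of the stratum's Ccl5 UMIs. Without DEP 11 it was -2.60. Without immunoglobulin-rich barcodes it was 1.52 and passed (edgeR adjusted p = 0.0165). Ccl5 then stood at 398 and 0 CPM in DEP 11 and DEP 13 against 85.7 and 99.7 in PBS 2 and PBS 3, with overlapping groups. Ccl4 stood at 869 and 188 against 943 and 588, Ccl3 at 540.0 and 706 against 802 and 629.7, Ccl6 at 872 and 870.5 against 1246 and 950.3, and Ccl9 at 598 and 553 against 1103 and 733. Ccl6 and Ccl9 had their groups apart, as had 17.9% of genes with DEP lower. Without immunoglobulin-rich barcodes Ccl4 was at 1039 and 129 against 895 and 783, Ccl3 at 690.0 and 998 against 827 and 879, Ccl6 at 1079.6 and 961 against 1369 and 1296, and Ccl9 at 755 and 813 against 1199.6 and 1047. Ccl3 and Ccl4 still overlapped, Ccl6 and Ccl9 were still apart, and none of these 4 passed.

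Receptors of these ligands were also in the table. Ccr1, the shared receptor of Ccl3, Ccl5, Ccl6 and Ccl9, stood at 176, 158, 232 and 113 CPM in the Ly6c2-high C1qa-low stratum of DEP 11, DEP 13, PBS 2 and PBS 3 and at 297, 275, 309 and 247 in the C1qa-high Ly6c2-low stratum (log2 0.74, SE 0.10, edgeR adjusted p = 1.28e-05). Ccrl2, an atypical receptor that does not signal through G proteins, did not pass (log2 -0.01, SE 0.11). Ccr3 was at 0.5 or less CPM in every mouse and the decoy receptors Ackr1 and Ackr2 had 0 to 0.1. Neither Ccr1 nor Ccrl2 passed between DEP and PBS mice over all barcodes or in the 3 strata tested.

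Of the 13 other CC ligands listed, 4 were high enough to test. Ccl12 (log2 2.66, SE 0.12), Ccl8 (2.51, SE 0.13) and Ccl7 (1.81, SE 0.16), monocyte attractants of a neighbouring cluster of genes, were higher in C1qa-high Ly6c2-low barcodes (edgeR adjusted p of 1.41e-12, 1.76e-11 and 5.86e-08), and Ccl2 was not called (0.10, SE 0.17). The median over the 4 was 2.16, against 0.02 over all genes. Between DEP and PBS mice Ccl8 passed in Ly6c2-high C1qa-high barcodes (log2 1.56, SE 0.37, edgeR adjusted p = 0.0150), at 89.5 and 506 CPM in DEP 11 and DEP 13 against 93.2 and 83.0. The groups overlapped and DEP 13 alone stood apart, with 43 UMIs in 14 barcodes. In C1qa-high Ly6c2-low barcodes Ccl8 was at 642 and 778 against 411 and 349 CPM, the groups apart, and did not pass over all genes (log2 0.91, SE 0.17, unadjusted p = 0.000341, edgeR adjusted p = 0.468). Over all barcodes it was at 475 and 607 against 355 and 291 (log2 0.76, SE 0.19, edgeR adjusted p = 0.997). Cxcl2 was called lower in Ly6c2-high C1qa-high barcodes (log2 -1.52, SE 0.35, edgeR adjusted p = 0.00634), at 167 and 94.1 against 418 and 401. DESeq2 called 0 genes in that stratum. The counts of the other lists are to be read against the 12.1% of all genes called higher and the 14.3% called lower in C1qa-high Ly6c2-low barcodes. Of 14 tested NF-kB companions 4 were higher and 2 lower, with Cxcl2 (log2 1.25, SE 0.13) and Il1b (0.47, SE 0.12) higher and Nfkbia (-0.23, SE 0.07) and Zfp36 (-0.36, SE 0.09) lower. Of 17 dissociation genes 4 were higher and 5 lower. Of 11 signalling genes downstream of the receptors 2 were higher, among them Rgs1, which shortens G protein signals (2.56, SE 0.10), and 3 were lower, among them its relative Rgs2 (-0.25, SE 0.07).

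Over the 16 summed samples (4 strata of 4 mice) the genes most like each member were listed by Pearson r of log2 levels among 6839 genes. The points share mice and strata, so r is a description. Ccl6 was most like Emb (0.99), Capg (0.98) and Ahnak (0.97), and Ccl9 had rank 4 for it. Ccl9 was most like Ccl6 (0.97), Emb (0.96) and S100a10 (0.96). Ccl4 was most like Gna13 (0.93), Tagap (0.93) and Cebpa (0.92), and Ccl3 most like Snrk (0.90), Itpkb (0.85) and Tmem63a (0.84). Between Ccl3 and Ccl4, whose high barcodes overlapped most, r over the summed samples was 0.47, and Ccl4 had rank 270 among the genes for Ccl3. Ccl5 was most like Serf1 (0.86), Mrps36 (0.82) and Atp5g1 (0.81), with its values set by few barcodes.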

How the data were processed

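The deposited table holds UMI counts per gene and barcode, not normalized. According to the methods and the submitters' processing notes, the authors sorted all mice in a single batch, aligned reads to mm10 with Cell Ranger and STAR 2.6.1a, with a 10x annotation based on Ensembl, and merged libraries without downsampling. No correction for free RNA was made. Each barcode ends in the title of its mouse's sample, which gave the mouse. Symbols and positions came from GENCODE M21 (28416 of 28692 identifiers matched). Promoter sequences came from RefSeq and transcript sequences from GENCODE M21.

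Barcodes of at least 1000 UMIs were kept (4771). The study's further filters kept 4623 of them, more than the number it states, for a reason not found here. Depth was 4489342 to 10293703 UMIs per mouse, and precision is limited by 2 mice per group. Counts were summed per mouse and stratum and tested with edgeR 4.0.16 (quasi-likelihood F test, TMM, genes over 1 CPM in at least 2 samples with a UMI in at least 5% of barcodes, Benjamini-Hochberg 5%). The mouse was a block where strata of the same mice were compared. Nothing says whether the mice shared a litter or cage. On simulated data, 200 genes changed by 2 on the log2 scale were added to each comparison and most were recovered.

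Scrublet (in scanpy 1.11.5, expected rate 6%) marked 66 barcodes (1.38%; 25 in DEP 13), which were kept and left out in an alternative. Alternatives were DESeq2 1.42.0, other scaling, no gene filter, leaving out each mouse, the study's filters, other lineages left out, thinning to 1000 UMIs, halved or doubled limits, and, added after seeing the data, immunoglobulin-rich barcodes left out. Other lineages were barcodes with UMIs of at least 2 T and NK cell, 2 B cell or 3 plasma cell markers, whatever their depth. They were 85, 147 and 475 barcodes, leaving 4064, and were not shown to be other cell types. Named genes were the members, the listed receptors (1 is not reported here), up to 4 genes of the highest level in the lists of other ligands and NF-kB companions, up to 2 in signalling, and the 3 genes most like each member. Igkc, Ly6a and Hspb1 were named after their values were seen. The members and lists were chosen with earlier results of these data known.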

Additional observations from a re-analysis of the deposited data

Results flagged for a closer look

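For Ccl4 the DEP effect differed between the strata by a test of the difference itself. The effect was -1.37 on the log2 scale in Ly6c2-high C1qa-low barcodes and -0.12 in C1qa-high Ly6c2-low barcodes, and the interaction was 1.21 (edgeR adjusted p = 0.00117). Ccl4 was lower in DEP mice in the first stratum in 2 of 2 mice and overlapped in the second. The interaction held in each leave-one-out fit and with called doublets or immunoglobulin-rich barcodes left out, and not with both limits doubled (0.53). The call in the first stratum alone was less stable. It was kept without called doublets and ended without immunoglobulin-rich barcodes, without other lineages, when thinned, with both limits doubled and in most leave-one-out fits. In the first stratum Ccl4 was at 345 and 292 CPM in DEP 11 and DEP 13. Both were below the level of barcodes under 500 UMIs (433 and 597 CPM). Immunoglobulin-rich barcodes had 292 and 430 CPM, so that DEP 11 was above them and DEP 13 below. The part of free RNA in the difference was not tested.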

How the results depend on the processing

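Of the member values under the alternatives, 361 kept their direction and side of the threshold, 25 reversed, 9 no longer passed and 9 newly passed. The cause was not tested for any of them. Where a mouse was left out, the lone mouse of its group was assumed to vary like the others. Counts of genes called between DEP and PBS moved as follows. Over all barcodes they were 4 with DESeq2, 119 with all genes with a count and 7 to 35 leaving out each mouse. In Ly6c2-high C1qa-low barcodes they were 36 with all genes, 0 without other lineages, when thinned and without immunoglobulin-rich barcodes, 6 with both limits halved or doubled, and 1 to 6 leaving out each mouse. In Ly6c2-high C1qa-high barcodes they were 0 with DESeq2 and with halved limits, 34 with all genes, 4 when thinned, 7 without immunoglobulin-rich barcodes and 4 to 17 leaving out each mouse. Doubled limits could not be fitted there, DEP 13 having no barcodes. In C1qa-high Ly6c2-low barcodes they were 7 with DESeq2, 119 with all genes, 1 without other lineages, without called doublets or with doubled limits, and 0 to 14 leaving out each mouse. Between strata 559 genes were called when thinned and 991 with halved limits. The interaction called 7 genes with DESeq2, 36 with all genes, 37 without other lineages, 6 when thinned, 4 with halved limits, 25 without immunoglobulin-rich barcodes and 7 to 24 leaving out each mouse. The share of C1qa-high Ly6c2-low barcodes differed by -2.35 points with halved and -1.06 with doubled limits.

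Reversed values were small or rested on few UMIs. Leaving out each mouse, Ccl5 ranged from -0.61 to 0.60 over all barcodes, with -0.05 without PBS 2, from -0.26 to 1.67 in Ly6c2-high C1qa-low, from -2.60 to 1.79 in Ly6c2-high C1qa-high and from -0.36 to 0.67 in C1qa-high Ly6c2-low barcodes, and from -2.02 to 0.95 in the interaction, which was 0.48 with doubled limits. Ccl6 in Ly6c2-high C1qa-low barcodes ranged from -0.071 to 0.029, and was 0.094 without other lineages, 0.069 when thinned, 0.12 with halved limits and 0.053 without immunoglobulin-rich barcodes. In Ly6c2-high C1qa-high barcodes Ccl3 ranged from -0.44 to 0.13, and was 0.24 when thinned, and Ccl4 ranged from -1.86 to 0.17. Ccl4 in C1qa-high Ly6c2-low barcodes ranged from -0.34 to 0.075, and was 0.01 without PBS 2 and 0.0078 when thinned. Ccl3 between strata ranged from -0.15 to 0.15, and was -0.00039 with relative log expression factors, -0.045 without other lineages, -0.0497 with doubled limits and -0.031 without immunoglobulin-rich barcodes. Without the mouse as a replicate block the strata gave 1359 called genes, with Ccl4 at 1.05 (edgeR adjusted p = 0.0105) and Ccl3 at -0.037, and changed no call of a member. The labels name no pairs of DEP and PBS mice, so the groups were compared as unpaired. Ccl5 depth, 10 to 21 UMIs per mouse in the Ly6c2-high C1qa-low stratum, limits what can be seen of it.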

Other observations

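Smaller groups of barcodes, chosen by a UMI of both genes of a marker pair and overlapping one another, also differed in these chemokines, as values with no test. Barcodes with Vcam1 and Cd72, genes of resident macrophages, had 1379 ± 245 CPM of Ccl4 and 370.3 ± 48.0 of Ccl6 (SD, n = 4 mice, 800 barcodes). Those with Folr2 and Cbr2, genes of another resident macrophage state, had 622 ± 158 of Ccl4 and 667 ± 294 of Ccl6 (77 barcodes, 8 in the smallest mouse). Those with Cd209a and Clec10a, lectins shared with dendritic cells, had 464 ± 305 of Ccl3 and 839 ± 377 of Ccl4 (122 barcodes). Those with Saa3 and Clec4e, genes of inflamed myeloid cells, had 1203 ± 830 of Ccl4 and 852 ± 158 of Ccl9 (119 barcodes), 90 of the barcodes being from PBS 2.

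In barcodes with T or NK cell markers Ccl5 was above its level over all barcodes, except in DEP 13, where it was absent. It stood at 1350.0, 0, 188 and 963 CPM in DEP 11, DEP 13, PBS 2 and PBS 3. These came from 93, 0, 49 and 153 UMIs in 15, 9, 28 and 27 barcodes. Those 79 barcodes also had 544 ± 377 of Ccl4. In DEP 11, 8 barcodes with Saa3 and Clec4e held 82 Ccl5 UMIs.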
